A study of Arabidopsis thaliana with 3 samples.

Results

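Tetrapyrrole and chlorophyll synthesis genes were followed in Arabidopsis thaliana plants of the hy5-1 mutant, set against plants of its wild type Landsberg erecta (Ler). The genes were the 5 loci HEMA2 (AT1G09940), GSA1 (AT5G63570), HEME1 (AT3G14930), CHLI2 (AT5G45930) and CHLM (AT4G25080), taken by locus identifier. All 5 were found among the 7234 named loci of 3 two-colour microarrays. Each array carried hy5-1 RNA labelled with Cy5 and Ler RNA labelled with Cy3, and is a biological replicate per the labels. Plants of both genotypes were 3 weeks old. They had grown in pots at 22 °C, on days of 16 h light with 8 h dark, before a final day (1 day) at 4 °C. The arrays therefore compared genotypes in the cold, and no array compared cold with warmth. The series carries no dye exchange, so a dye effect of a probe and a difference between the genotypes cannot be told apart.

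Tetrapyrroles are the ring-shaped pigments and cofactors that include chlorophyll, haem and siroheme. Plants make them in the plastid from glutamate, by way of 5-aminolevulinic acid (ALA), along a common trunk that ends in protoporphyrin. At that point magnesium insertion leads to chlorophyll and iron insertion leads to haem. HY5, the bZIP transcription factor missing in hy5-1, is known as a promoter of light-induced greening, and free tetrapyrrole intermediates are known to be phototoxic. The series title places HY5 in the control of cold-induced genes, and the question asked here is whether synthesis genes of this pathway differed between hy5-1 and Ler in the cold.

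All values are the deposited log2 ratios of the 2 channels. A positive ratio was read as Cy5 over Cy3, that is higher in hy5-1. This is the usual form of such a ratio, but the labels do not state the numerator. Under the opposite reading every sign in the text turns together. A difference in RNA per cell and a difference in the number of cells that hold the RNA cannot be told apart in whole plants. The value rows were matched to probes by an order that had been found from the values themselves. Under it, 71 features of 7 genes spotted 10 times or more had a variance within genes of 0.0345 of their total variance, against 0.978 with row numbers used as given. This comparison used the same values, so it is not an independent check of the match, and it included none of the 5 genes. Every gene name rests on this match. Each of the 5 genes had 1 named feature, so no ratio could be checked on another probe.

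None of the 5 genes passed the threshold for a difference between hy5-1 and Ler, and their mean log2 ratios lay between -0.31 and 0.26. The threshold was an adjusted p of 0.05 in limma, with p-values adjusted by the Benjamini-Hochberg method over all 7234 loci. The count was 0 of 5, beside 17.2% of all named loci. By direction it was 0 with a mean above 0 and 0 with a mean below 0, beside 7.88% and 9.29% of all named loci. At an unadjusted limma p under 0.05 there were 2 of 5, GSA1 and CHLM, beside 36.3% of all named loci. The median of the 5 means was -0.11, beside 0 for all named loci. Without array 1 or without array 3, limma called 0 of all named loci, with 1613 and 1585 loci at an unadjusted p under 0.05, so these 2 settings hold no call to compare with. A single sign on all 3 arrays was shown by 2 of the 5 genes, again GSA1 and CHLM, beside 54.5% of all named loci.

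**Figure D1:**
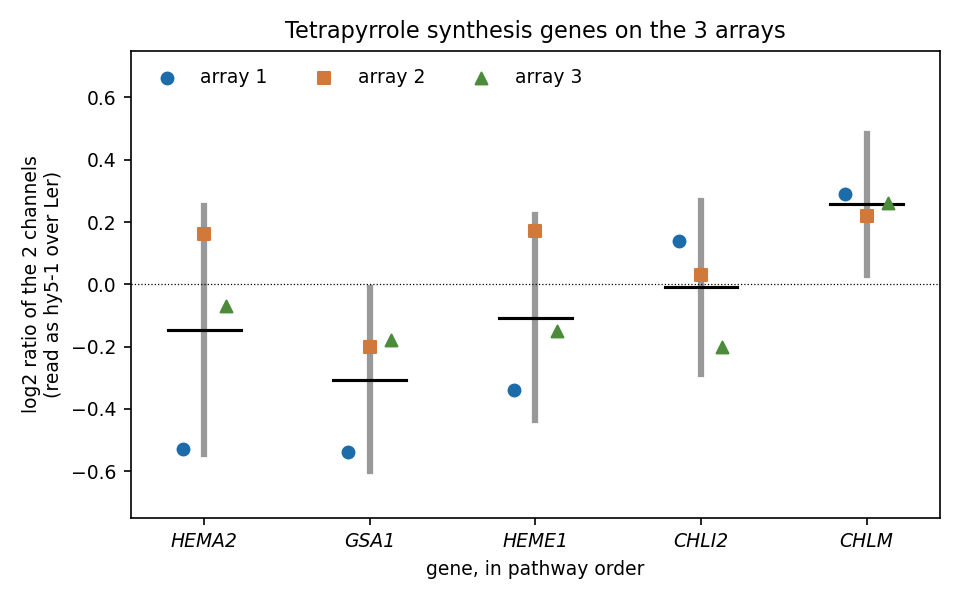
Log2 ratio (y axis, read as hy5-1 over Ler) of the 5 genes in pathway order (x axis) on arrays 1, 2 and 3. Black lines are means over the 3 arrays and grey bars are limma's 95% confidence intervals without adjustment. CHLM lies above 0 on all 3 arrays, GSA1 below 0 on all 3, and the other genes lie on both sides of 0.

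The first committed step is carried out by glutamyl-tRNA reductase, which HEMA genes encode. HEMA1 is known as the light-regulated main isoform of green tissue and HEMA2 as the isoform prominent in roots and flowers. On arrays 1, 2 and 3 HEMA2 had log2 ratios of -0.53, 0.16 and -0.07. Array 1 stood apart from the other arrays, which lay on either side of 0. The mean was -0.15 ± 0.35 (SD, n = 3), with a 95% interval of -0.54 to 0.25 and a limma adjusted p of 0.57. HEMA2 had the widest spread of the 5 genes, wider than that of 83% of all named loci. Its direction rested on array 1, since the mean was 0.045 without it.

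GSA1 encodes glutamate-1-semialdehyde aminotransferase, the enzyme that completes ALA. Arrays 1, 2 and 3 gave log2 ratios of -0.54, -0.20 and -0.18. All 3 arrays were below 0, as they were for 27.5% of all named loci and array 1 was the lowest. GSA1 had the mean furthest from 0 among the 5 genes, at -0.31 ± 0.20 (SD, n = 3), which corresponds to a 1.24-fold lower level in hy5-1 under the reading used. The 95% interval ran from -0.60 to -0.013, and the limma adjusted p was 0.126. A mean at least this far from 0 was seen for 38.5% of all named loci. The mean was -0.19 without array 1.

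HEME1 encodes uroporphyrinogen decarboxylase, which acts in the common trunk. Its log2 ratios were -0.34, 0.17 and -0.15 on arrays 1, 2 and 3. As for HEMA2, array 1 was the lowest and array 2 was the only one above 0. The mean was -0.11 ± 0.26 (SD, n = 3), with a 95% interval of -0.44 to 0.22 and a limma adjusted p of 0.625. Without array 1 the mean was 0.01.

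CHLI2 encodes an isoform of the I subunit of magnesium chelatase, the ATP-driven enzyme that opens the chlorophyll branch; CHLI1 is known as the main isoform. CHLI2 had log2 ratios of 0.14, 0.03 and -0.20 on arrays 1, 2 and 3. The arrays were spread about 0, with array 3 the only one below it. The mean was -0.01 ± 0.17 (SD, n = 3), with a 95% interval of -0.29 to 0.27 and a limma adjusted p of 0.963. In fold terms the interval ran from 0.82 to 1.20, hy5-1 over Ler. Without array 3 the mean was 0.085.

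CHLM encodes the methyltransferase that acts on magnesium protoporphyrin, the step after the chelatase. On arrays 1, 2 and 3 the log2 ratios were 0.29, 0.22 and 0.26. All 3 arrays lay above 0 and within 0.07 of each other; 27.0% of all named loci were above 0 on all 3 arrays. The mean was 0.26 ± 0.04 (SD, n = 3), a 1.19-fold higher level in hy5-1 under the reading used. The 95% interval of limma was 0.029 to 0.48. Its width comes largely from limma's prior SD of 0.196 over all named loci, not from the spread of CHLM itself. The unmoderated statistic gave CHLM a p of 0.00618 and an adjusted p of 0.153, so CHLM did not pass there either. Only 3.3% of all named loci had a smaller SD. Its limma adjusted p was 0.106, so it did not pass. CHLM was the single member with a mean above 0 and the highest of the 5 genes on each array.

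The sizes of the GSA1 and CHLM ratios can be set beside those of all named loci. The smallest mean past the threshold was 0.37 away from 0, and the median size among loci past it was 0.64. Of 539 loci with means sized between those of CHLM and GSA1, 0 passed in limma. This fit of 3 arrays therefore called no locus at the size these 2 genes showed, and a p that misses the threshold does not show equal levels in hy5-1 and Ler. The intervals of the 5 genes reached from -0.60 at the low end to 0.48 at the high end.

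**Figure D2:**
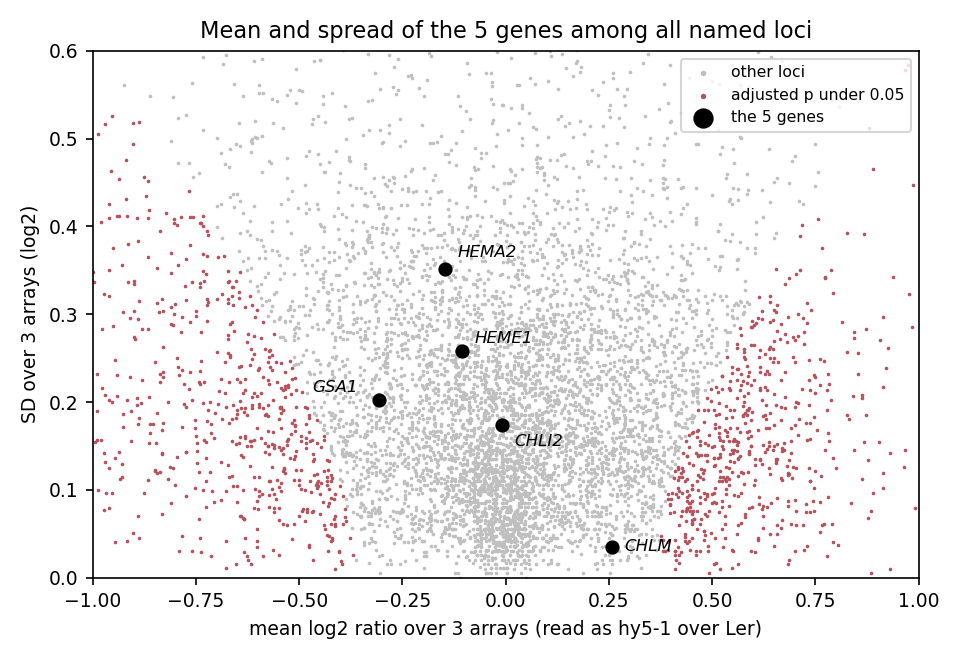
Mean log2 ratio over the 3 arrays (x axis, read as hy5-1 over Ler) and SD over the 3 arrays (y axis, log2) of the named loci, with the 5 genes in black and loci past the threshold in red. The 5 genes lie in the grey region of loci that did not pass, with CHLM at the low end of the SD axis. The axes leave out 440 loci with a mean beyond 1 in size or an SD over 0.6.

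By array, the genes before the magnesium branch showed no common level against CHLI2 and CHLM. On array 1 CHLI2 and CHLM were at 0.14 and 0.29, and HEMA2, GSA1 and HEME1 lay between -0.54 and -0.34. The other 4 measured genes of these earlier steps (HEMA3, HEMB1, HEME2 and AT5G63290) were between 0.01 and 0.37 on array 1, so the stages overlapped there too. Over all 7 earlier genes, the mean of CHLI2 and CHLM minus theirs was 0.32 on array 1, -0.036 on array 2 and 0.09 on array 3, and changed sign. Over HEMA2, GSA1 and HEME1 alone it was 0.69, 0.082 and 0.16. Genes are not replicates, and this division into stages was not tested.

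In rank among all named loci, HEMA2 and GSA1 stood low on array 1, where 12.5% and 12.2% of loci had a lower ratio. On array 2 the shares were 67.2% for HEMA2 and 28.7% for GSA1, and on array 3 they were 41.1% and 29.6%. HEME1 had 20.5%, 68.0% and 32.8% of loci below it on arrays 1, 2 and 3. CHLM kept nearly the same rank, with 76.2%, 72.1% and 76.8% of loci below it. CHLI2 had 64.6%, 53.7% and 27.7%. HEMA2 and HEME1 stood in the lower part on array 1 and in the upper part on array 2, whereas CHLM stood in the upper part on all arrays.

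Array 2 correlated less with the others across named loci (r = 0.512 with array 1 and 0.505 with array 3) than arrays 1 and 3 did with each other (r = 0.759). Loci, not samples, are the points of these correlations, and loci of an array are not independent. On array 2 HEMA2 lay 0.46 above the mean of its ratios on arrays 1 and 3, and HEME1 lay 0.42 above it. An upward departure at least this large was seen for 10.5% of all named loci in the case of HEMA2 and for 12.5% in the case of HEME1. GSA1 and CHLI2 departed by 0.16 and 0.06, and CHLM by -0.055. The part of array 2 in these departures was not tested. The spots around each gene on the array grid had medians between -0.12 and 0.08 on the 3 arrays, over 24 spots per gene and 14 for HEMA2, which lies at the edge of the grid.

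Differences between the genes within an array cancel a shift that all spots of that array share, but not a difference in scale between arrays. Over all features the scaled median absolute deviation was 0.208, 0.133 and 0.193 on arrays 1, 2 and 3. The SD over all features was 0.377, 0.385 and 0.321. CHLM minus GSA1 was 0.83, 0.42 and 0.44 on arrays 1, 2 and 3, with a mean of 0.56 ± 0.23 (SD, n = 3). CHLM was above GSA1 on every array, and this mean was the largest in size of the 10 pairs. CHLM minus HEMA2 was 0.82, 0.06 and 0.33, and CHLM minus HEME1 was 0.63, 0.05 and 0.41. Both were close to 0 on array 2. Of the 10 pairs of genes, 6 kept 1 sign on all 3 arrays, namely the 4 pairs with CHLM, HEME1 over GSA1, and GSA1 below HEMA2. The 4 pairs with CHLM restate that CHLM was the highest of these genes on each array. Pairs that share a gene are not independent. The share of pairs with 1 sign among all named loci was not computed, so the count has no background. Among single named loci, 54.5% kept 1 sign on all 3 arrays. In an exact sign-flip permutation test, two-sided, 3 arrays cannot give a p below 0.25. The p-values of these 6 pairs were all 0.25, with an adjusted p of 0.429 over the 12 pairs compared. A test that cannot pass does not show whether the genes of a pair differed.

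**Figure D3:**
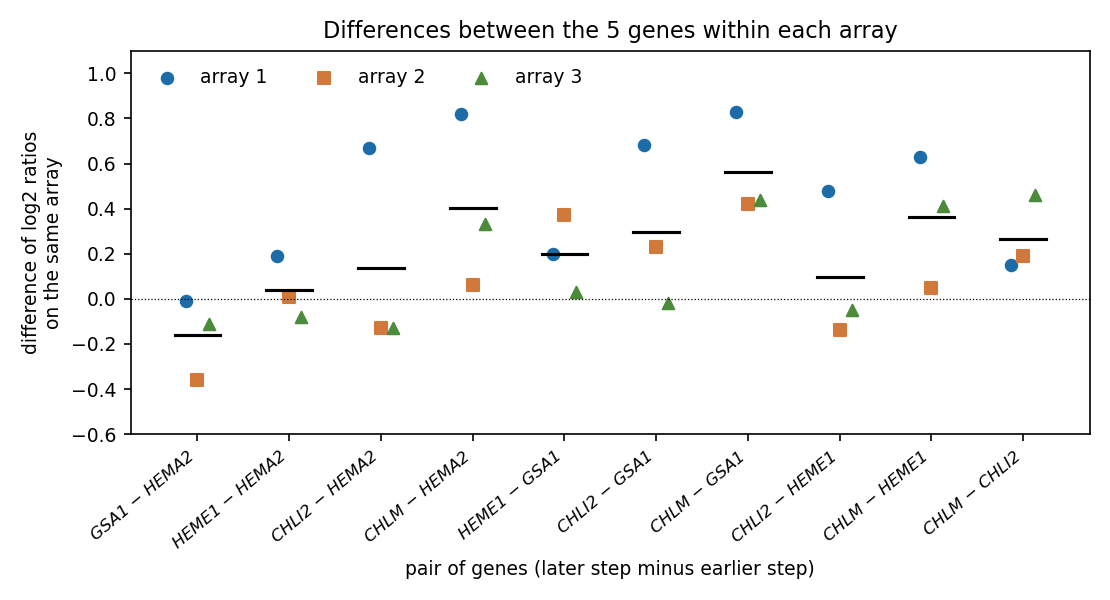
Difference of log2 ratios on the same array (y axis) for the 10 pairs of the 5 genes (x axis, later step minus earlier step), with 1 point per array and the mean as a black line. The 4 pairs with CHLM lie above 0 on all 3 arrays, and CHLM minus GSA1 has the largest mean, 0.56.

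Other genes of the pathway were looked up in 7 lists of 78 genes, the 5 members included. They covered ALA synthesis, the trunk to protoporphyrin, the chlorophyll branch, the haem, siroheme and bilin branches, chlorophyll breakdown, regulators, and isoprenoid supply with carotenoids. Of the 78 genes 10 had a named feature, 5 of them members. In limma 0 of the 10 passed the threshold in either direction, beside 17.2% of all named loci. An unadjusted limma p under 0.05 was found for 2 of the 10, beside 36.3% of all named loci. The median of the 10 means was -0.015, beside 0 for all named loci. Among the 5 list genes that are not members it was 0.17, with 3 of 5 means above 0, and among the 5 members -0.11, with 1 of 5 above 0. Of all 7234 named loci, 3635 had a mean above 0. The contrast between members and other list genes was not tested. The haem, siroheme and bilin genes (9), the regulators (12) and the isoprenoid and carotenoid genes (14) had no named feature and were not analysed here. This also held for HEMA1, GSA2 and CHLI1.

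**Figure D4:**
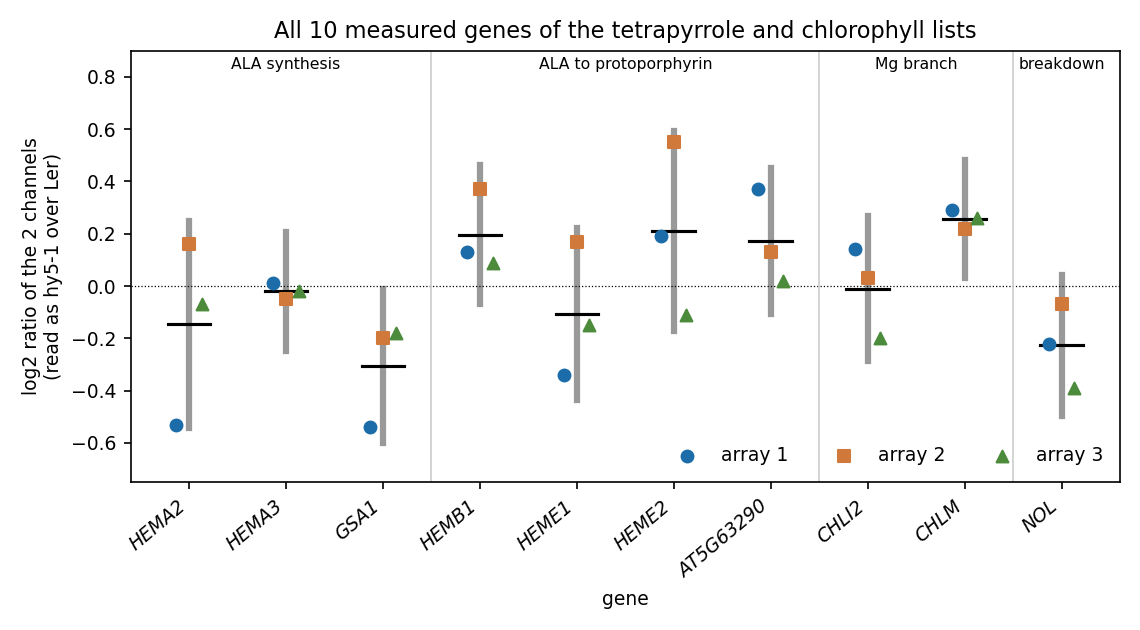
Log2 ratio (y axis, read as hy5-1 over Ler) of the 10 measured genes of the lists (x axis, by stage) on arrays 1, 2 and 3. Black lines are means and grey bars limma's 95% confidence intervals without adjustment. Apart from GSA1 and CHLM, the bars of all genes cross 0.

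Of ALA synthesis, 3 of 6 genes were measured and 0 passed. HEMA3, a further glutamyl-tRNA reductase gene, had 0.01, -0.05 and -0.02 on arrays 1, 2 and 3, so all arrays lay close to 0. Its mean was -0.02 ± 0.03 (SD, n = 3). Signal over background is unknown, so these ratios do not show whether HEMA3 RNA was detected. HEMA2 minus HEMA3 was -0.54, 0.21 and -0.05 on the 3 arrays and changed sign between them.

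Of the trunk from ALA to protoporphyrin, 4 of 11 genes were measured and 0 passed. HEMB1, the ALA dehydratase gene, had 0.13, 0.37 and 0.09, above 0 on all 3 arrays. The mean of HEMB1 was 0.20 ± 0.15 (SD, n = 3), and its adjusted p in limma was 0.243. HEME2, the second uroporphyrinogen decarboxylase gene of these lists, had 0.19, 0.55 and -0.11. Its mean was 0.21 ± 0.33 (SD, n = 3), and its adjusted p in limma was 0.378. HEME1 was below HEME2 on all 3 arrays. HEME1 minus HEME2 was -0.53, -0.38 and -0.04, an average of -0.32 ± 0.25 (SD, n = 3). The exact sign-flip permutation p was 0.25, with an adjusted p of 0.429. Both genes had their highest ratio on array 2. AT5G63290, kept in the list as a trunk locus, had 0.37, 0.13 and 0.02, with a limma adjusted p of 0.323.

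Of the chlorophyll branch, CHLI2 and CHLM were the 2 of 15 genes measured. Chlorophyll breakdown had 1 of 11 genes measured, NOL, which encodes a chlorophyll b reductase. NOL had -0.22, -0.07 and -0.39, below 0 on all 3 arrays. Its mean was -0.23 ± 0.16 (SD, n = 3), and it did not pass, with a limma adjusted p of 0.194. GSA1, HEME1 and CHLI2 have close homologues in the genome, and HEMA2 has HEMA1 and HEMA3. The ratios of HEMA2, GSA1, HEME1 and CHLI2 were not shown to be free of signal from these homologues.

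The named loci with the most similar ratios were found by Euclidean distance over the 3 arrays. For CHLM they were AT3G18930 and AT4G08790, at distances of 0.022 and 0.024, and 46 loci lay within 0.1 of it. For GSA1 they were AT5G15950 and AT1G26460, at 0.042 and 0.046, with 13 loci within 0.1. HEME1 had AT3G07670 and AT4G27580 nearest, at 0.014 and 0.033, and CHLI2 had AT1G67280 and AT1G15120, at 0.051 and 0.059. HEMA2 was the most isolated of the 5 genes, with PWD (AT5G26570) at 0.077 and AT5G16680 at 0.089 as its nearest loci and 5 loci within 0.1. Over 3 arrays many loci fall close together, and the distances describe ratios only.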

How the data were processed

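The deposited values were read as log2 ratios of the 2 channels for 45220 features on each of 3 arrays, with no missing value. Base 2 was assumed from their range (-4.03 to 5.09). For the scanner software, normalisation and numerator, nothing is given in the sources used here. Array medians were 0 to 0.01. RNA was amplified and labelled with aminoallyl-coupled dyes, per the labels' protocols. Of the features, 7440 were named through the platform annotation and RefSeq (assembly TAIR10.1), each with 1 gene, and features of a locus were averaged. Loci were tested in R 4.3.3 with limma 3.58.1, fitting an intercept with empirical Bayes moderation (2 residual and 3.04 prior degrees of freedom) and Benjamini-Hochberg adjustment over 7234 loci. The procedure was tested on simulated data. Signal over background is unknown, and the number of arrays limits the precision. Members and lists were chosen with earlier results of these data known. Named genes were the members, all measured list genes and the 2 loci nearest to each member. Alternatives were median centring, scaling, robust or no moderation, a joint fit of all features, row numbers as given, a filter on spread, and leaving out each array. Whether biological replicates came from separate sowings is not stated, so p-values refer to these arrays only. In limma, p-values and intervals combine a locus's own spread between the arrays with a prior SD of 0.196 estimated from all named loci.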

Additional observations from a re-analysis of the deposited data

How the results depend on the processing

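The 5 genes gave 0 calls under 9 of the 10 alternatives. Of these, the unmoderated statistic called 3 of all named loci. The fits without replicate 1 or without replicate 3 called 0 of all named loci. A call of a member was thus hardly possible in these settings, and their 0 says little about the 5 genes. With row numbers as given, 1 gene passed, HEMA2 at -1.15 (limma adjusted p = 0.0417), and it was also the only list gene (1) past the threshold. GSA1 was then at 0.017, CHLI2 at 0.32 and CHLM at -0.033. If the match used here is right, these are the values of other spots. Leaving out an array gave means of -0.30 to 0.045 for HEMA2 and -0.245 to 0.01 for HEME1, above 0 without replicate 1. It gave -0.085 to 0.085 for CHLI2, above 0 without replicate 3, -0.37 to -0.19 for GSA1 and 0.24 to 0.275 for CHLM. Apart from the row order, adjusted p-values ran from 0.064 to 0.397 for GSA1 and from 0.0706 to 0.329 for CHLM. Loci past the threshold numbered 1242, against 391 with scaled arrays, 3 with the unmoderated statistic, 491 with row numbers as given, 2156 without the tenth of loci with the largest spread, and 0 to 1380 with an array left out. Where no cause is given, the cause was not tested. No paired analysis was possible because no second group of arrays shares the replicate numbers; the pairing of hy5-1 with Ler within an array is already in each ratio.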
